A study of Homo sapiens with 4 samples.

Results

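The genes examined were 8 enzymes and regulators that write or remove methyl groups on cytosine in DNA. They were DNMT1, UHRF1, DNMT3A, DNMT3B, TET1, TET2, TET3 and TDG, chosen by symbol among the 23368 entries of a gene count table, and all 8 were found. All 8 also passed the filter on low counts that left 13844 genes for testing. The table came from RNA-seq of 4 human lines established from acute lymphoblastic leukemia of B-cell precursors, each sequenced once. RS4;11 and SEM carry the translocation t(4;11), in which the MLL gene (KMT2A) is rearranged and fused to AFF1. The controls, NALM6 and REH, are without it. All lines were grown to sub confluency in RPMI medium with serum. Where a pair of values is given for a group, it is in the order RS4;11 and SEM for the translocation and NALM6 and REH for the controls. The controls do not share a lesion of their own, since REH is known for an ETV6-RUNX1 fusion and NALM6 for a DUX4 rearrangement. Each group therefore held 2 lines (n = 2), and the spread between lines includes every other difference between these leukemias.

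DNMT1 copies methylation onto the new strand after replication, and UHRF1 recognises half-methylated sites and recruits it. DNMT3A and DNMT3B place methyl groups on unmethylated sites. TET1, TET2 and TET3 oxidise methylcytosine, and TDG excises the oxidised bases so that repair can restore an unmodified cytosine. In blood cancers DNMT3A and TET2 are known as frequent targets of mutation, and TET1 was named after the MLL fusion in which it was found.

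The summed gene counts lay between 33620574 in SEM and 84212986 in REH. The labelled cell type was checked with 8 B-lineage markers, each counted in every line. They summed to between 1211 and 2440 CPM (counts scaled by library total, a relative level). Single markers varied, and VPREB1 had 0.226 CPM in REH and 16.4 CPM in SEM, against 294 CPM in RS4;11 and 244 CPM in NALM6. SEM was also low for CD79B (9.73 CPM) and IGLL1 (27.1 CPM). The 5 T and NK markers summed to at most 4.67 CPM, with CD3D, CD3E and CD3G at 0 counts in all 4 lines. The 5 myeloid markers summed to between 10.3 CPM (NALM6) and 49.4 CPM (REH). Their highest single values were MPO in REH (34.2 CPM) and CSF1R in SEM (33.3 CPM). The erythroid and stromal lists summed to at most 0.463 and 4.16 CPM. Levels below are counts scaled to CPM by the column sum. Since these are bulk RNA libraries, fewer cells with a transcript and less transcript per cell cannot be told apart.

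Across the 13844 genes, edgeR's quasi-likelihood test called 0 genes at an adjusted p under 0.05 (0% of those tested), and none of the 8 passed. At an unadjusted p under 0.05 it held 1668 genes, which is 12% of those tested. DESeq2 called 1354 genes (10.4% of its tests) and edgeR's exact test 408 (2.95%). The log2 fold changes below come from the quasi-likelihood fit with TMM scaling and are t(4;11) over control. The median log2 fold change of all genes was -0.02 with TMM and -0.12 with column sums alone.

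TET1 was the member that differed most between the groups. It had 3.03 CPM (RS4;11) and 0.744 CPM (SEM) against 17.5 CPM (NALM6) and 30.4 CPM (REH). The t(4;11) lines were both below both controls, and SEM held only 25 TET1 counts (95% exact Poisson interval 0.481 to 1.10 CPM, for counting error only). The control mean was 12.7 times the t(4;11) mean, at 1.89 ± 1.61 CPM in t(4;11) lines and 23.9 ± 9.08 CPM in controls (SD, n = 2 each). Its log2 fold change was -3.55 (± 0.94 SE, adjusted p = 0.370 by edgeR's quasi-likelihood test). An unadjusted p this small or smaller was seen in 5.98% of all genes tested. TET1 was called lower in the authors' deposited DESeq table (adjusted p = 0.00395), where 0.63% of genes were called lower. It was also called by DESeq2 on the same counts (adjusted p = 0.00290), which called 5.06% of its genes lower. The authors' deposited Cuffdiff table did not call it (q = 0.251), nor did edgeR's exact test (adjusted p = 0.119). With each line left out in turn the log2 fold change lay between -4.91 (without RS4;11) and -2.86 (without SEM).

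The start of TET1 is shown because no other member separated the lines as widely. The window runs from 250 bases before to 50 bases after the transcript start of RefSeq, chr10:68560087-68560386 on the plus strand (GRCh38.p14), with every CG dinucleotide in capitals.
TET1: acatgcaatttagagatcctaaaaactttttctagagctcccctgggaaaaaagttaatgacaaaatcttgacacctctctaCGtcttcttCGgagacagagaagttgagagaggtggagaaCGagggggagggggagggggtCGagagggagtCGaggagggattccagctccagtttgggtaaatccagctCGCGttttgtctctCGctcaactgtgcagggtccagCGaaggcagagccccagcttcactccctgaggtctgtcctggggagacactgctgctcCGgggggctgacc
This window held 10 CG dinucleotides, fewer than the median of 14 over the 35116 such windows of annotated transcript starts, and 43.6% of those windows held fewer. RefSeq lists 3 TET1 starts in this table, and gene counts do not separate transcripts from each of them. Methylation itself was not measured in these libraries. In hg19 the TET1 locus spans bases 70320117 to 70454239 of chromosome 10. Its nearest tested neighbours were not separated between the groups. SLC25A16, a mitochondrial carrier gene 32.8 kb before it, had 12.1 and 10.1 CPM with the translocation against 15.1 and 10.2 CPM in the controls (log2 fold change -0.08 ± 0.44 SE). CCAR1, 26.7 kb beyond it, had 205 and 214 CPM with the translocation against 235 and 200 CPM in the controls (log2 fold change 0.05 ± 0.16 SE). GENCODE 29 annotates a processed pseudogene of TET1 and another of TDG, so reads of near-identical sequence could be shared.

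**Figure D1:**
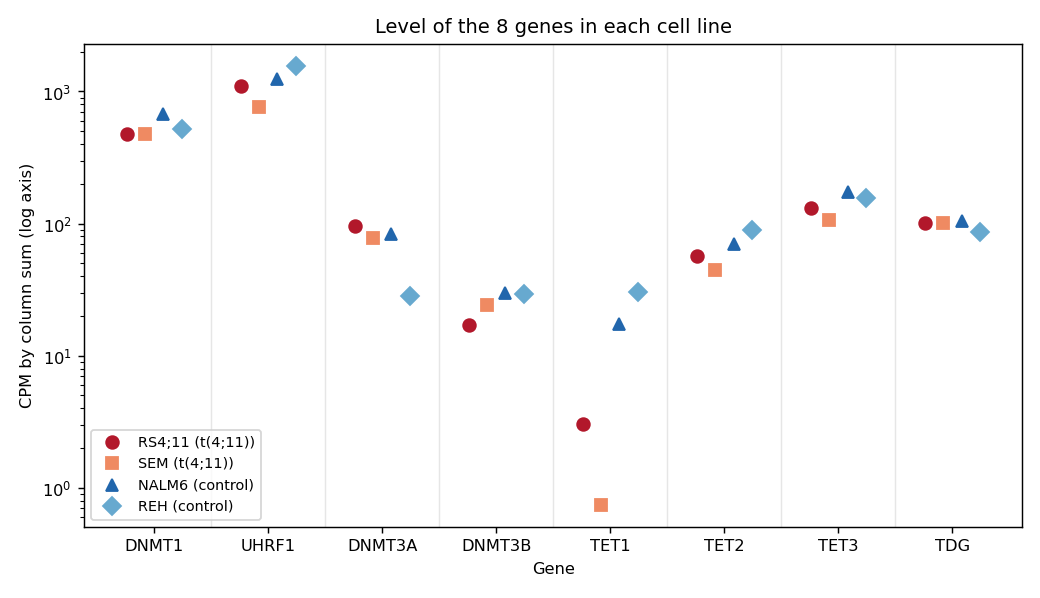
Level of each gene (x axis) in CPM by column sum (log y axis), with 1 point per line: RS4;11 and SEM (t(4;11)), then NALM6 and REH (control). TET1 ran from 0.744 CPM in SEM to 30.4 CPM in REH, while TDG stayed between 86.7 and 104 CPM.

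The other two TET genes were expressed in all 4 lines at levels far above TET1 in the t(4;11) lines. TET2 had 56.9 CPM (RS4;11) and 44.8 CPM (SEM) against 70.1 CPM (NALM6) and 88.7 CPM (REH). Both t(4;11) lines were below both controls, but the log2 fold change of -0.54 (± 0.25 SE) did not pass (edgeR adjusted p = 0.501). TET3 had 131 CPM (RS4;11) and 107 CPM (SEM) against 172 CPM (NALM6) and 156 CPM (REH). The groups again did not overlap, and the log2 fold change was -0.36 (± 0.19 SE, adjusted p = 0.536 by edgeR). Neither gene was called in the authors' deposited DESeq table (adjusted p = 1 for both) or in their deposited Cuffdiff table (q = 0.891 for TET2 and 0.978 for TET3).

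Counts of different genes depend on transcript length, so the genes were ranked by the length-scaled FPKM of the authors' deposited Cuffdiff table, which gives 1 value per group. In that table the 8 genes stood in the same order in both groups: UHRF1, DNMT1, TDG, DNMT3A, TET3, TET2, DNMT3B and TET1. UHRF1 stood at 252 FPKM in t(4;11) lines and 353 FPKM in controls, and TET1 at 0.202 FPKM in t(4;11) lines and 2.39 FPKM in controls. Of the summed FPKM of the 3 TET genes, TET1 made up 1.22% in t(4;11) lines and 9.77% in controls. TET3 made up 66.8% in t(4;11) lines and 58.5% in controls. The deposited FPKM carries no spread between lines, so neighbours in this order could not be tested. TET2 and DNMT3B stood close together, at 5.34 and 5.28 FPKM in t(4;11) lines and 7.78 and 7.04 FPKM in controls. DNMT3A and TET3 stood close in controls, at 14.8 and 14.3 FPKM. The control value of DNMT3A pools NALM6 (83.6 CPM) with REH (28.5 CPM), so the order need not hold in each line.

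The maintenance genes were the most abundant of the set. DNMT1 had 481 CPM (RS4;11) and 475 CPM (SEM) against 680.1 CPM (NALM6) and 519 CPM (REH). The t(4;11) lines were both lower on this scale, but with TMM scaling RS4;11 (504 CPM) stood above REH (502 CPM) and the groups overlapped. Its log2 fold change was -0.22 (± 0.21 SE, adjusted p = 0.708 by edgeR), and it was -0.02 without NALM6. UHRF1 had 1103 CPM (RS4;11) and 766 CPM (SEM) against 1244 CPM (NALM6) and 1561 CPM (REH). SEM was lowest and REH highest, with no overlap between groups, and the log2 fold change was -0.48 (± 0.30 SE, adjusted p = 0.583 by edgeR). Exons of DNMT1 and its neighbour S1PR2 overlap on the same strand in GENCODE 29, while their hg19 loci in the deposited data lie 26.4 kb apart. S1PR2 reached at most 12.4 CPM, and whether the overlap affected the counts of DNMT1 was not tested.

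The starts of DNMT1 and UHRF1 are shown because both are known S phase genes, a class regulated by E2F factors. The windows were searched on both strands for the E2F words TTTCCCGC, TTTGGCGC, TTTCGCGC and TTTGCCGC, and a match is in capitals. They lie at chr19:10194904-10195203 on the minus strand and chr19:4909251-4909550 on the plus strand (GRCh38.p14, RefSeq).
DNMT1: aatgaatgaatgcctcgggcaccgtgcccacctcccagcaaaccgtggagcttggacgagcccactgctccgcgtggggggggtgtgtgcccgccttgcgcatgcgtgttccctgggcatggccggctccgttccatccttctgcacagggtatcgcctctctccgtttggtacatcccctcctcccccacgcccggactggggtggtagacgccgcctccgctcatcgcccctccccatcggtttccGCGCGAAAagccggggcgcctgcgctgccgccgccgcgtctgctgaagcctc
UHRF1: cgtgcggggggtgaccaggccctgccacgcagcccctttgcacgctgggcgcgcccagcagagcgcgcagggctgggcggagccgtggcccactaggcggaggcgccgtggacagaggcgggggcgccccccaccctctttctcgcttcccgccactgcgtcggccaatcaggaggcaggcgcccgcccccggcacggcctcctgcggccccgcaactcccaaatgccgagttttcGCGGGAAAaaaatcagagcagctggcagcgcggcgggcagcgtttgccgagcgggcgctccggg
Each of these windows held 1 match. UHRF1 has further annotated starts, whose windows held 1 match (chr19:4909894-4910193) and 0 matches (chr19:4910117-4910416). DNMT1 and UHRF1 were the 2 members with a match in any of their windows. Each of the words searched holds a CG dinucleotide. The windows with a match held 30 (DNMT1), 36 and 40 (UHRF1) of these, beside a median of 14 over all windows. The 8 members have 19 windows, and 3.31% of all 35116 windows held a match. That share is per window, so it cannot be set against a count of genes. The words can overlap each other across strands, and a match describes letters only. No E2F word stands in the TET1 window printed above.

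The 20 S phase and proliferation genes were all tested, with a median log2 fold change of 0.09, beside -0.02 over all genes tested. At an unadjusted p under 0.05, 2 were higher and 0 lower, beside 6.18% and 5.87% of all genes. MCM4, a subunit of the replicative helicase, had 901 and 791 CPM with the translocation against 534 and 520.4 CPM in the controls (log2 fold change 0.79 ± 0.18 SE, adjusted p = 0.344 by edgeR). RRM2, a subunit of ribonucleotide reductase, had a log2 fold change of 0.73 (± 0.19 SE, adjusted p = 0.360 by edgeR). The most abundant, the proliferation antigen MKI67, stood at 1520 and 1087 CPM with the translocation against 1362 and 1420.0 CPM in the controls. Among the E2F genes, picked out after their values were seen, E2F1 had 148 and 86.6 CPM with the translocation against 191 and 234 CPM in the controls. Its 4 lines stood in the same order as those of UHRF1, TET1 and TET2, an order shown by 8.63% of all genes tested. DNMT1 had another order, with NALM6 highest and REH next. A link between E2F1 and any of these genes was not tested.

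The de novo methyltransferases had fitted differences of opposite sign, and neither passed. DNMT3A had 96.0 CPM (RS4;11) and 78.4 CPM (SEM) against 83.6 CPM (NALM6) and 28.5 CPM (REH). NALM6 lay within the t(4;11) range by column sum, so the groups overlapped, and REH alone stood low. With TMM scaling SEM and NALM6 were level at 80.3 CPM each, with SEM marginally higher, so that the groups did not overlap. The log2 fold change was 0.75 (± 0.59 SE, adjusted p = 0.656 by edgeR). It was 0.16 without REH and 1.72 without NALM6, so the value rests on which control is kept. DNMT3B had 17.1 CPM (RS4;11) and 24.1 CPM (SEM) against 29.7 CPM (NALM6) and 29.4 CPM (REH). Both t(4;11) lines were lower, by a log2 fold change of -0.42 (± 0.30 SE, adjusted p = 0.621 by edgeR). DNMT3L, a cofactor of these enzymes without catalytic activity, stayed at or below 0.285 CPM in every line and was not tested.

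TDG was the steadiest member, with 102 CPM (RS4;11) and 101 CPM (SEM) against 104 CPM (NALM6) and 86.7 CPM (REH). By column sum NALM6 was highest and REH lowest, so the groups overlapped, and the highest line was 1.20 times the lowest. With TMM scaling both t(4;11) lines, at 107 and 103 CPM, stood above NALM6 (100.03 CPM) and REH (84.0 CPM). There the log2 fold change was 0.19 (± 0.18 SE, adjusted p = 0.708 by edgeR).

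**Figure D2:**
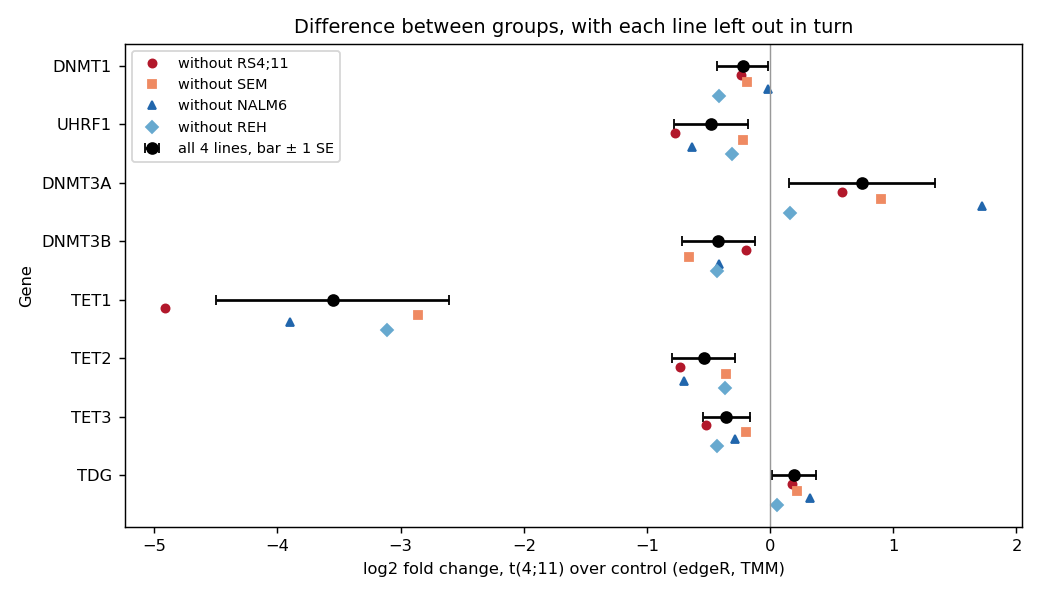
Log2 fold change of each gene, t(4;11) over control (x axis, edgeR with TMM), with ± 1 SE in black for all 4 lines and coloured points with 1 line left out. TET1 stayed at or below -2.86 in each version, while DNMT3A moved between 0.16 without REH and 1.72 without NALM6.

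By column sum, RS4;11 and SEM both stood below NALM6 and REH for 6 of the 8 genes, where 28.3% of all genes tested were and 47.3% did not overlap in either direction. None had both t(4;11) lines above both controls by column sum, where 19% of all genes did. With TMM scaling 5 stood below, without DNMT1, beside 23.4% of all genes, and 2 stood above, DNMT3A and TDG, beside 24.3% of all genes. SEM was the lowest of the 4 lines for DNMT1, UHRF1, TET1, TET2 and TET3, a position it held in 26.7% of all genes. UHRF1, TET1 and TET2 shared the full order REH, NALM6, RS4;11 and SEM from high to low, which 8.63% of all genes also showed. The median log2 fold change of the 8 genes was -0.39, beside -0.02 over all genes tested. At an unadjusted p under 0.05, TET1 alone was lower, beside 5.87% of all genes. The authors' deposited Cuffdiff table called none of the 8, beside 2.34% of its tested genes.

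Inside the groups, single libraries per line allow no test, and 2-fold was used as the size worth naming. Between RS4;11 and SEM only TET1 was past 2-fold, at 4.07 times the SEM level in RS4;11, where 23.1% of genes were past it. Between NALM6 and REH only DNMT3A was, at 2.94 times the REH level in NALM6, where 29.7% of genes were past it. The remaining members differed by at most 1.44-fold between RS4;11 and SEM (UHRF1) and by at most 1.73-fold between REH and NALM6 (TET1).

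Ratios of counts inside a line do not depend on library scaling. TET1 counts were 0.0532 of TET2 counts in RS4;11 and 0.0166 in SEM, against 0.250 in NALM6 and 0.342 in REH. The mean log2 ratio differed by -3.30 between translocated and control lines without overlap. DNMT3B counts were 0.178 of DNMT3A counts in RS4;11 and 0.307 in SEM, against 0.355 in NALM6 and 1.03 in REH. REH was therefore the line in which the pair was counted about equally. TDG counts were 1.73 and 1.45 times those of MBD4, another DNA glycosylase, in RS4;11 and SEM, against 1.34 and 1.27 times in NALM6 and REH. These 3 ratios did not overlap between groups, and each gave an exact permutation p of 0.333, two-sided, the smallest that 2 against 2 lines allow. UHRF1 over DNMT1 and TET3 over TET2 overlapped between groups (exact permutation p = 0.667 and 1.0).

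**Figure D3:**
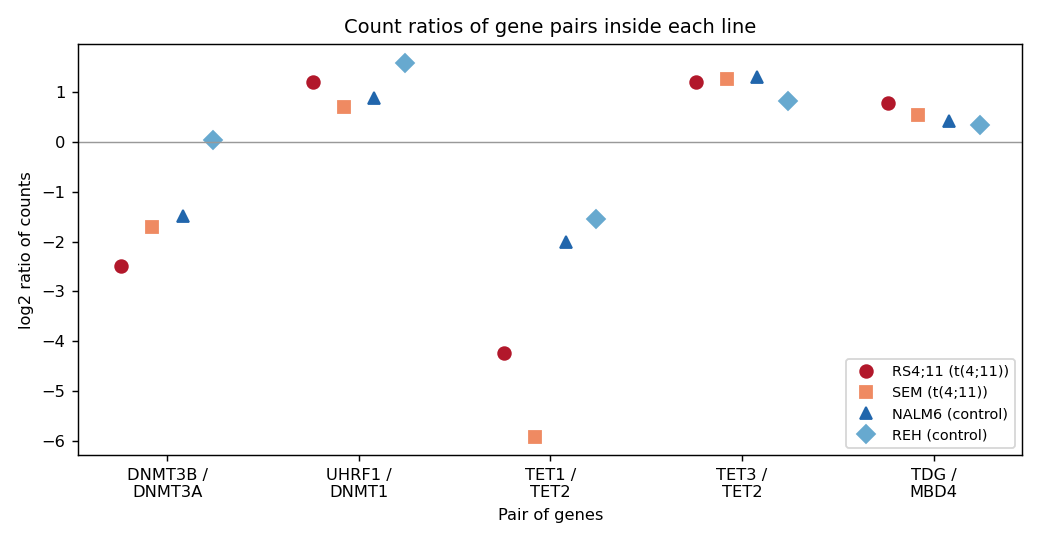
Log2 ratio of the counts of 2 genes inside each line (y axis) for 5 gene pairs (x axis), with 1 point per line. TET1 over TET2 lay at -4.23 and -5.91 in RS4;11 and SEM, below -2.00 and -1.55 in NALM6 and REH.

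Pathway genes around these enzymes were followed in lists of partners and cofactors, and no listed gene passed edgeR's quasi-likelihood test after adjustment. Among 14 partners of maintenance methylation the median log2 fold change was 0.03, and an unadjusted p under 0.05 was reached by 1 higher and 1 lower gene. For this list and those below, the shares over all genes tested were 6.18% higher and 5.87% lower. CDCA7L, a relative of the chromatin remodelling factor CDCA7, had 86.0 and 71.0 CPM with the translocation against 174 and 301 CPM in the controls. Its log2 fold change was -1.50 (± 0.35 SE, adjusted p = 0.344 by edgeR), and the authors' deposited tables called it by Cuffdiff (q = 0.0473) but not by DESeq. KIAA0101, the PCNA-associated factor PAF15, had 158 and 223 CPM with the translocation against 113 and 119 CPM in the controls. PCNA itself, the replication clamp and the most abundant of the list, had a log2 fold change of 0.03 (± 0.25 SE).

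Proteins that bind CpG or methyl-CpG sites had 14 tested genes with a median log2 fold change of -0.05, and an unadjusted p under 0.05 was reached by 1 higher and 2 lower genes. CXXC1, which binds unmethylated CpG sites in an H3K4 methyltransferase complex, had 68.2 and 72.4 CPM with the translocation against 109 and 112 CPM in the controls (log2 fold change -0.55 ± 0.16 SE, adjusted p = 0.381 by edgeR). MBD5 had 9.08 and 7.32 CPM with the translocation against 21.0 and 18.6 CPM in the controls. MBD3, a subunit of the NuRD complex, stood the other way at 148 and 120.4 CPM with the translocation against 75.7 and 94.7 CPM in the controls. None of the 15 listed genes was called in either deposited table. KDM2A, the most abundant, had a log2 fold change of -0.31 (± 0.22 SE).

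Among partners and cofactors of the TET enzymes 12 genes were tested, with a median log2 fold change of -0.19. IDH1, whose enzyme makes the 2-oxoglutarate that TET enzymes consume, was the single gene with an unadjusted p under 0.05. It had 83.5 and 84.5 CPM with the translocation against 39.1 and 41.2 CPM in the controls (log2 fold change 1.17 ± 0.18 SE, adjusted p = 0.310 by edgeR). The lines of each group lay close together and the groups did not overlap, yet neither deposited table called it. OGT, which binds TET proteins and was the most abundant of the list, had a log2 fold change of -0.68 (± 0.35 SE).

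Base excision repair had 14 tested genes with a median log2 fold change of 0.07, and an unadjusted p under 0.05 was reached by 0 higher genes and 1 lower gene. NEIL2, a DNA glycosylase, had 6.05 and 6.42 CPM with the translocation against 23.5 and 20.9 CPM in the controls (log2 fold change -1.73 ± 0.36 SE, adjusted p = 0.329 by edgeR). PARP1, a sensor of strand breaks and the most abundant of the list, overlapped between groups. The 12 genes of methyl donor supply had a median log2 fold change of -0.04 and none at an unadjusted p under 0.05. MAT2A, which makes the methyl donor S-adenosylmethionine, had 531 and 519.5 CPM with the translocation against 607 and 565 CPM in the controls (log2 fold change -0.05 ± 0.16 SE). TRDMT1, a relative of the DNA methyltransferases that methylates transfer RNA, had a log2 fold change of -0.21 (± 0.28 SE).

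**Figure D4:**
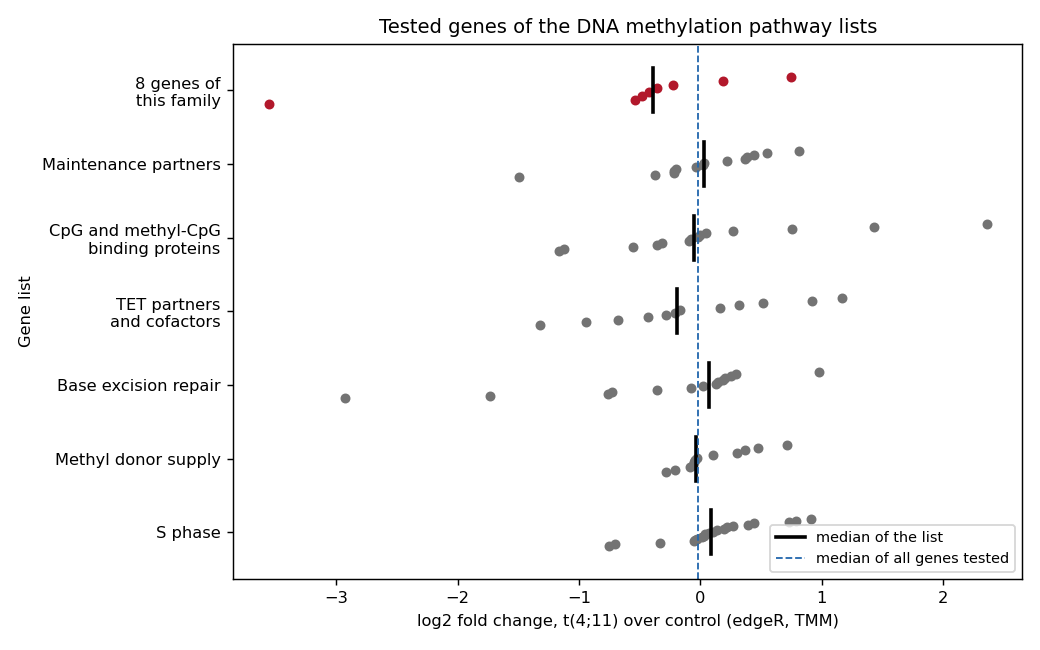
Log2 fold change, t(4;11) over control (x axis), of each tested gene in 7 gene lists (y axis), with the median of each list as a black bar and that of all genes tested as a dashed line. The 8 DNA methylation enzymes have a median of -0.39 with TET1 at -3.55, and the other lists have medians between -0.19 and 0.09.

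Germline genes are known to be silenced by promoter methylation in somatic cells, and 26 of them were looked up. Most stayed below 1 CPM in all lines, with 17 and 20 genes at 0 counts in RS4;11 and SEM, against 20 and 14 in NALM6 and REH. The number at 0 also depends on depth (33620574 counts in SEM and 84212986 in REH), so a count of 0 does not by itself show silence. At or above 1 CPM there was 1 gene in RS4;11, none in SEM or NALM6, and 1 in REH. PRAME, a cancer-testis antigen, had 0.521 and 0.208 CPM with the translocation against 0.134 CPM (NALM6) and 19.0 CPM (REH). DAZL, a germ cell RNA-binding protein named after its values were seen, had 90 counts (1.74 CPM) in RS4;11 and 0 in the other lines, which in those lines allows at most 0.0892 CPM (3 counts in SEM). STK31, a testis kinase gene, had 0 and 2 counts in RS4;11 and SEM, against 31 and 72 counts in NALM6 and REH. Only 3 of the 26 genes passed the filter on low counts, so the list is given by its counts alone.

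By position, 16 nearest tested neighbours of the 8 genes were listed, 1 on each side in hg19. Their log2 fold changes ran from -4.56 to 1.81. Of the 16, 2 had an unadjusted p under 0.05 by edgeR's quasi-likelihood test, beside 12% of all genes tested. These were ARRDC5 beside UHRF1, with 0.135 and 0.149 CPM with the translocation against 1.29 and 5.96 CPM in the controls, and MAPRE1 beside DNMT3B. MAPRE1, a microtubule end-binding protein, had 270.4 and 266 CPM with the translocation against 204 and 167 CPM in the controls, a direction opposite to that of DNMT3B. On the other side of UHRF1, the histone demethylase gene KDM4B had 41.4 and 60.3 CPM with the translocation against 67.8 and 117 CPM in the controls. Its log2 fold change of -0.77 (± 0.39 SE) did not pass (adjusted p = 0.520 by edgeR).

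Genes whose pattern over the 4 lines was most like that of a member were found by Euclidean distance between centred log2(CPM + 1) profiles among 12665 other genes with a mean of at least 1 CPM. This was done for TET1, DNMT3A and UHRF1, the members with the widest range. The nearest to TET1 were HPS4 (distance 0.232), DYRK3 (0.293) and SORL1 (0.316). HPS4 had 204 and 70.3 CPM with the translocation against 818 and 1361 CPM in the controls. Adding 1 CPM before the log narrows the range of a gene as low as TET1. In plain CPM the highest line for TET1 was 40.8 times its lowest, so fold ranges can differ at a small distance. The nearest to DNMT3A were GNL3 (0.0753), LARS2 (0.0970) and ZNF799 (0.176), each lowest in REH. The nearest to UHRF1 were RBM33 (0.0429), MTA3 (0.0459) and NIPSNAP1 (0.0518). Over only 4 lines many genes share such a profile.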

How the data were processed

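mRNA libraries of 4 cell lines were made with a TruSeq RNA kit, per the labels' protocols. Whether counting used strand is not given in the sources used here. CASAVA 1.8.2, TopHat2 2.0.4, HTSeq, DESeq and Cuffdiff are named with build hg19 in the submitters' processing notes, without settings. The annotation is not given in the sources used here. The deposited tables hold raw HTSeq counts per gene, and the authors' DESeq normalized counts, a signal equal to the count over a size factor per line. Per the file headers they also hold the authors' DESeq ratio (control over t(4;11)) with p-values, and Cuffdiff FPKM per group with a log2 fold change, a test score, p-values and q-values. Signs of deposited fold changes were turned to t(4;11) over control.

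Counts of 23368 entries were tested with edgeR 4.0.16 in R 4.3.3 (filterByExpr, TMM, quasi-likelihood F test, two-sided, Benjamini-Hochberg over 13844 genes, 2 residual and 1.75 prior degrees of freedom). The SE is the log2 fold change over the square root of F. Groups came from the labels, which give no batch and no pairing. The labels do not say that more than 1 culture was used, so p-values measure the spread between lines. A count of 0 allows at most 3 counts, between 0.0356 and 0.0892 CPM. Dates had replaced 28 symbols, which could not be matched by name. DESeq2 1.42.0, edgeR's exact test, other filters and scalings, and leaving out each line were alternatives.

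Promoter windows were taken from RefSeq (GRCh38.p14), and all 8 genes matched. Loci are those of the deposited Cuffdiff table. Members and lists were chosen with earlier results of these data known. Besides all members, the text names up to 4 genes per list at an unadjusted p under 0.05 or with a deposited call, the most abundant gene of each list, nearest neighbours and nearest profiles. Figures used matplotlib 3.10.9.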

Additional observations from a re-analysis of the deposited data

How the results depend on the processing

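No member reversed its direction under any of the 10 alternatives to the main test. The call of TET1 was gained with DESeq2 (log2 fold change -3.55, adjusted p = 0.00290). Over the 10 alternatives its adjusted p lay between 0.00290 and 0.909. The count of called genes, 0 with the main settings, was 5 without a filter on low counts, 4 with at least 1 CPM in 2 lines, 1354 with DESeq2 and 408 with edgeR's exact test, and 0 to 0 with each line left out. Of the pathway list genes 10 had an unadjusted p under 0.05, a count that was 16 with DESeq2 and 6 with the exact test, and 4 to 13 with a line left out (6 without RS4;11 and 4 without SEM). Leaving out a line moved DNMT3A between 0.16 (without REH) and 1.72 (without NALM6), and DNMT1 between -0.41 and -0.02. The cause of these shifts in DNMT3A and DNMT1 was not tested. For the pathway lists, the 10 genes of the main test were out of 87 listed genes tested, beside 12% of all genes. For the alternatives, the share of all genes at an unadjusted p under 0.05 is not given. Whether the list count changed more than that of all genes therefore cannot be read from these counts. With 1 line left out, the lone line of a group is assumed to vary like the pair of the other group. The members whose groups did not overlap, in either direction, were 6 by column sum, beside 47.3% of all genes tested. With TMM they were 7, beside 23.4% of all genes lower and 24.3% higher. They were 6 with RLE or the authors' DESeq normalized counts, for which the share over all genes was not computed. For low genes such as TET1 in SEM, depth limits the precision.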

Other observations

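CXXC4, whose product binds TET2 and whose gene lies 651 kb before TET2 in hg19, was counted almost only in SEM. It had 146 counts (4.34 CPM) there, 0 in RS4;11 and NALM6 and 1 in REH, and did not pass the filter for testing. NEIL1, a glycosylase related to NEIL2, had 1.79 and 3.78 CPM with the translocation against 7.29 CPM (NALM6) and 37.7 CPM (REH) (log2 fold change -2.92 ± 1.06 SE, adjusted p = 0.421 by edgeR). ZBTB4, a methyl-CpG-binding zinc finger protein, had 27.1 and 22.1 CPM with the translocation against 39.1 and 75.8 CPM in the controls (log2 fold change -1.12 ± 0.42 SE, adjusted p = 0.436 by edgeR). These 3 genes were picked after their values were seen.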
